A study of Arabidopsis thaliana with 18 samples.

Results

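The aquaporin family of Arabidopsis thaliana was followed through messenger RNA sequencing of whole seedlings treated with the plant hormone abscisic acid (ABA). The family was taken as 35 loci of a fixed list of locus identifiers, out of 32399 loci in the count files. The list holds 13 plasma membrane intrinsic proteins (PIP), 10 tonoplast intrinsic proteins (TIP), 9 NOD26-like intrinsic proteins (NIP) and 3 small basic intrinsic proteins (SIP). All 35 loci were listed in every count file, and the names of 34 of them were found in the RefSeq annotation, where TIP3;2 stands under its older name BETA-TIP.

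Aquaporins are membrane channels that let water, and in some members small uncharged solutes, cross a membrane down its gradient. PIPs sit mainly in the plasma membrane and TIPs in the membrane of the vacuole, the large water store of a plant cell. NIPs include channels for boric acid and for arsenite, and SIPs reside in the endoplasmic reticulum. ABA, which accumulates in plants short of water, closes stomata and changes the transcription of many genes, and PIP transport to the membrane, phosphorylation and degradation are known points at which water stress acts on water flow.

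The 6 groups compared hold 3 libraries each: ros1-3 with ABA, ros1-3 mock, ros1-4 with ABA, ros1-4 mock, wild type with ABA and wild type mock. ABA seedlings were kept for 6 h under water that contained 50 µM ABA, and mock seedlings for the same 6 h under water with the solvent alone, so all 6 groups were submerged. Every library came from whole seedlings 12 d old and from a pool of 5 plants, so a value is a mean over organs. The mutants carry alleles of ROS1, which encodes a DNA glycosylase that removes methylated cytosine from DNA, and the labels give the alleles by name only. The replicates are called biological by the submitters, with no statement on separate growth or treatment days. The p-values therefore set group differences only against how far these pools varied.

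Counted reads per library ranged from 3304038 to 10275773. ROS1 itself was lower in both alleles, with 31.5 to 58.3 CPM (counted reads scaled to a common library size) over the 12 mutant libraries and 82.6 to 120.3 CPM over the 6 wild type libraries. All 6 ABA-responsive check genes, among them RD29A, were higher with ABA in all 3 genotypes. Root and shoot markers were both read in all groups. Multiply aligned reads made up 5.6% to 7.48% of ros1-3 ABA libraries and 6.53% to 9.45% of ros1-3 mock libraries. The figures for ros1-4 were 3.86% to 4.46% (ABA) and 3.46% to 4.62% (mock), and those for wild type 6.32% to 11.4% (ABA) and 9.80% to 13.0% (mock). This share was thus lower in either mutant's mock libraries than in wild type mock libraries, without overlap, and also in ros1-4 ABA than in wild type ABA.

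Aquaporins made up a mean of 0.961% (ros1-3 mock) to 1.19% (wild type mock) of the counted reads of a group. Most of these reads came from vacuolar channels: TIPs took 80.5% to 84.7% of the aquaporin reads of a library, PIPs 12.7% to 16.7%, SIPs 1.1% to 1.94% and NIPs 0.582% to 2.83%. The counting understates PIPs and SIPs in these shares. Some members of both, but no TIP or NIP, have several transcript models in the count files. Reads that overlap several models of a gene were not counted, and how far this moves the shares was not tested. TIP1;2 alone took 49.5% to 54.5% and TIP2;1, also called DELTA-TIP, 20.3% to 24.6%. Reads scale with transcript length, so levels of different genes were set side by side only per kilobase (kb). They were ranked only among the 27 members with a single transcript model in the count files. RefSeq lists several models for some of these, PIP2;2 and PIP2;6 among them. The exon length used is that of the longest RefSeq model, which need not be the model counted.

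Per kb of exon length in wild type mock libraries, TIP1;2 stood highest at 4700 ± 709 CPM per kb (SD, n = 3). It was followed by TIP2;1 at 2355 ± 327 and by TIP1;1, or GAMMA-TIP, at 675.2 ± 89.1 CPM per kb, and the libraries of these 3 genes did not overlap. Among these 27 the plasma membrane channels came next, with PIP1;5 at 244.9 ± 27, PIP2;2 at 237.9 ± 13.5 and PIP2;6 at 228.7 ± 26.8 CPM per kb. These 3 overlapped in their libraries and could not be ordered. SIP1;1 at 100 ± 3.97, TIP2;2 at 93.8 ± 14.6 and NIP5;1 at 89.0 ± 7.77 CPM per kb came after them, and the libraries of TIP2;2 overlapped those of each neighbour, while the SIP libraries lay above the NIP libraries. PIP2;3 followed alone at 27.9 ± 2.73 CPM per kb. The other members that were read ranged from 0.0281 to 17.4 CPM per kb. Counted per kb of coding length instead, an alternative chosen after seeing the data, PIP2;6 moved to rank 4 and the boric acid channel to rank 7, while the leading 3 kept their ranks.

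**Figure D1:**
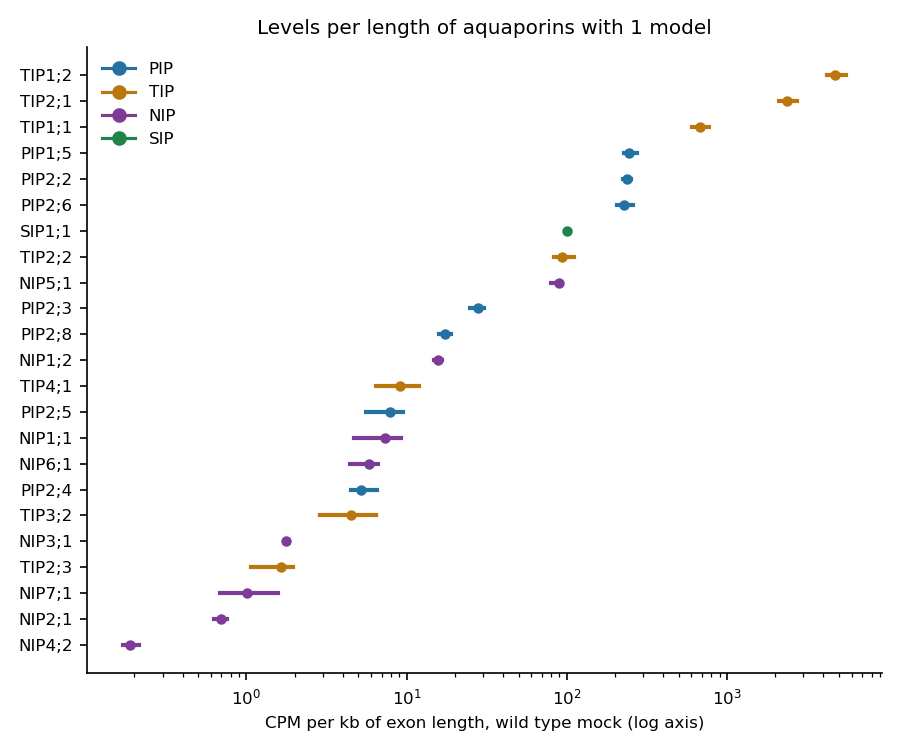
Levels per kb of exon length (CPM per kb, log axis) in the 3 wild type mock libraries, for aquaporins with a single transcript model in the count files and reads in every such library. Points are means and lines run from the lowest to the highest library. The TIPs of the first 3 ranks stand above all others, and 3 PIPs follow between 206.1 and 275.8 CPM per kb.

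Levels of the other 8 members, which are PIP1;1 to PIP1;4, PIP2;1, PIP2;7, SIP1;2 and SIP2;1, are understated. Each has several transcript models, and reads that overlap more than 1 model were set aside as ambiguous by the counting. The best read of them was PIP1;3, with 104.0 CPM per kb of the longest model in wild type mock. Per kb of those bases that only 1 model covers, which are the ones that could give counted reads, it had 596.6 CPM per kb, and PIP2;7 had 383.0. By that length both lay above the 244.9 CPM per kb of PIP1;5, so the order of the PIPs given for single-model members is not the order of the whole family. PIP2;1, a well studied water channel of roots and guard cells, had 1.38 by the longer and 7.34 CPM per kb by the shorter length. Differences between groups within such a gene rest on the same small stretch in every library.

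Apart from this, 8 members were too rarely read to be tested. Of these, TIP1;3, TIP5;1 and NIP4;1, all known from pollen, had 0 reads in all 18 libraries. Of 3 listed pollen markers VGD1 also had 0 reads, while ACA9 had 69 and SPIK 15 over all 18 libraries. NIP4;2, another pollen channel, had 23 reads in all. NIP2;1, which is known to be induced by lack of oxygen, had 72 reads over all 18 libraries, 0.0 to 1.55 CPM, in these submerged seedlings. NIP7;1, a boric acid channel of the anther, had 113 reads. SIP1;2 had 49, and the seed channel TIP3;1 had 45. The numbers tested were thus 13 of 13 PIPs, 7 of 10 TIPs, 5 of 9 NIPs and 2 of 3 SIPs.

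PIP2;2 and PIP2;3, a neighbouring pair on chromosome 2, are the members whose reads are hardest to separate. The first lies at chr2:15613368-15615022 on the minus strand and the second, which RefSeq names RD28 after its response to drying, at chr2:15617635-15619155 on the plus strand (TAIR10.1). Their coding sequences are 94.8% identical over 858 bases, the single pair of the family above 90%. Their loci are AT2G37170 and AT2G37180. The longest identical stretch, coding positions 175 to 416 counted from the A of the start codon, is shown because no read that lies within its 242 bases can be assigned to 1 of the genes.
Shared stretch: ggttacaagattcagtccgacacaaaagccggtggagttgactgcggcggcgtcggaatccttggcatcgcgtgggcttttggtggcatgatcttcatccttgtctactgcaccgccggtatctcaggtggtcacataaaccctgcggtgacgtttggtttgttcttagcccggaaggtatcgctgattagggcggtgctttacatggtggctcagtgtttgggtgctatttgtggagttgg
The 150 coding bases that follow, positions 417 to 566, differ at 17 positions, shown in capitals. They are given because reads there can be told apart.
PIP2;2: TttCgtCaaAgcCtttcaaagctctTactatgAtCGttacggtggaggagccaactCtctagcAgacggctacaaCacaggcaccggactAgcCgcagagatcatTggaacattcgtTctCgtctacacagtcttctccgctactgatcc
PIP2;3: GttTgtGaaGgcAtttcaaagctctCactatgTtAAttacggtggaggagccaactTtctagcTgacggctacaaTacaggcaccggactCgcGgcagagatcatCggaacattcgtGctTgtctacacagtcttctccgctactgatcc
Values for this pair are uncertain for that reason.

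The summed NIP level was lower with ABA in all 3 genotypes, and 1 gene, NIP5;1, carried the difference. The summed NIP level was 71.7 to 85.4 CPM in ros1-3 ABA against 233.7 to 272.4 CPM in ros1-3 mock. It was 84.1 to 94.3 CPM in ros1-4 ABA against 201.1 to 257.0 CPM in ros1-4 mock. In wild type it was 72.8 to 77.5 CPM with ABA against 215.3 to 249.5 CPM in mock. All 9 ABA libraries thus lay below all 9 mock libraries. Without that gene, a sum added after seeing the data, the other NIPs averaged 47.5 ± 3.22 CPM in ros1-3 ABA and 40.4 ± 3.94 in ros1-3 mock, 49.4 ± 6.68 in ros1-4 ABA and 45.6 ± 2.95 in ros1-4 mock, and 44.8 ± 2.59 in wild type ABA and 43.5 ± 1.99 CPM in wild type mock. These libraries overlapped in ros1-4 and wild type and stood apart in ros1-3. Without the TMM factors, which adjust library sizes for composition, the means were 46.7 CPM in ros1-3 ABA and 43.6 in ros1-3 mock, 46.5 in ros1-4 ABA and 47.5 in ros1-4 mock, and 41.8 in wild type ABA and 44.3 CPM in wild type mock. The sign of these small differences in ros1-4 and wild type thus depends on the scaling, and without the factors the libraries overlapped in all 3 genotypes. Sums over chosen members were given no test.

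PIP and SIP sums were higher with ABA. The PIP sum averaged 1701 ± 130 CPM in ros1-3 ABA and 1304 ± 79.4 in ros1-3 mock, 1872 ± 108 in ros1-4 ABA and 1489 ± 121 in ros1-4 mock, and 1843 ± 134 in wild type ABA and 1538 ± 155 in wild type mock (SD, n = 3 each). In wild type the PIP libraries overlapped, at 1689 to 1940 CPM with ABA and 1435 to 1715 CPM in mock, and in both alleles they did not. The rise was not shared by all PIPs. The PIP1 part overlapped in every genotype, and averaged 521.0 ± 60.6 CPM in wild type ABA and 496.9 ± 51.6 in wild type mock. Without TMM factors these 2 means were 485.4 and 504.0 CPM. PIP2;6 alone averaged 744.7 ± 69.6 CPM in wild type ABA and 491.2 ± 57.6 in wild type mock. The SIP sum averaged 181.9 ± 10.2 CPM in ros1-3 ABA and 131.2 ± 4.34 in ros1-3 mock, 190.6 ± 14.8 in ros1-4 ABA and 150.6 ± 6.71 in ros1-4 mock, and 182.0 ± 12.4 in wild type ABA and 143.3 ± 5.03 in wild type mock. The SIP libraries did not overlap within any genotype. Most of the SIP sum was SIP1;1, at 165.0 ± 13.0 CPM in wild type ABA and 129.2 ± 5.13 in wild type mock.

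The large TIP sum differed little with ABA in wild type, at 9873 ± 469 CPM with ABA and 9843 ± 1420 CPM in mock. Without the TMM scaling factors these means were 9210 and 9975 CPM, so the sign of this small difference depends on the scaling. The TIP sum was 8309 ± 738 in ros1-3 ABA and 7218 ± 676 CPM in ros1-3 mock, where libraries overlapped, and 10290 ± 244 in ros1-4 ABA and 9136 ± 586 CPM in ros1-4 mock, where they did not. Without TMM factors the ros1-4 libraries overlapped too, at 9528 to 9729 CPM with ABA and 9231 to 9855 CPM in mock.

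**Figure D2:**
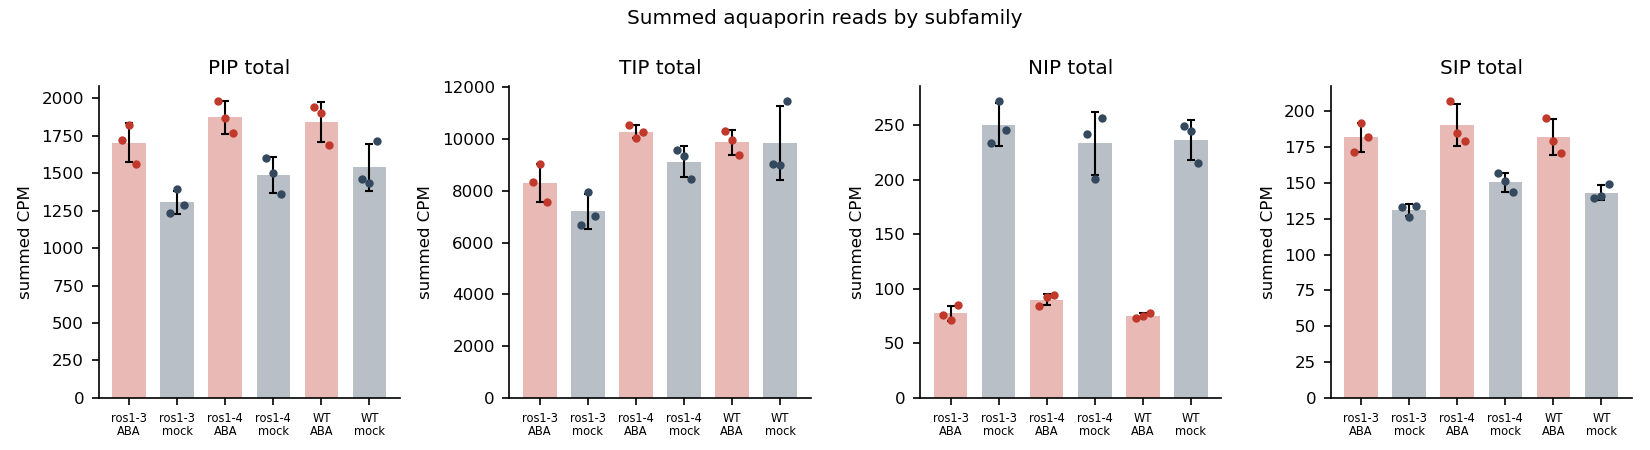
Summed CPM of each aquaporin subfamily in the 6 groups. Bars are means, error bars SD and points the 3 libraries of a group. The NIP sum with ABA lies between 71.7 and 94.3 CPM, below every mock library, while the TIP sums of ABA and mock overlap in wild type and ros1-3.

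Gene by gene, the ABA response was tested by edgeR's quasi-likelihood test in 1 fit of all 18 libraries and 15853 genes, and calls were made where the Benjamini-Hochberg adjusted p was under 0.05. Of the 27 tested aquaporins 10 were called in ros1-3, 8 higher and 2 lower with ABA, beside 38.2% of all genes tested. In ros1-4 14 were called, 10 higher and 4 lower, beside 38.2% of all genes. In wild type 12 were called, 7 higher and 5 lower, beside 38.5% of all genes. In the same order of genotypes, the shares of all genes called higher were 19.7%, 19.8% and 20%, and lower 18.5%, 18.4% and 18.5%. The members' median log2 fold changes were 0.27, 0.11 and 0.14, and those of all genes -0.02, -0.01 and -0.01. As shares of the 27, the aquaporins called were 37.0%, 51.9% and 44.4%, and no test of a share was made.

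The members called in the same direction in all 3 genotypes numbered 6, beside 26.5% of all genes. PIP2;5, PIP2;6, PIP2;7 and SIP1;1 were higher (all genes 14.6%), and NIP5;1 and NIP3;1 were lower (all genes 11.9%). None was called in opposite directions. In no genotype were 11 called, which were 5 PIPs, 5 TIPs and SIP2;1. The share of all genes called in no genotype was not computed, so this count has none beside it. With the share of multiply aligned reads as a covariate, 9 members were called in ros1-3, 14 in ros1-4 and 3 in wild type, where the calls were those of NIP5;1, PIP2;6 and GAMMA-TIP. The 9 wild type calls lost in that fit kept their direction, and 4513 of all 15853 genes were called for wild type there. Counts of all genes in that fit are not given for the alleles, so their 9 and 14 have none beside them.

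**Figure D3:**
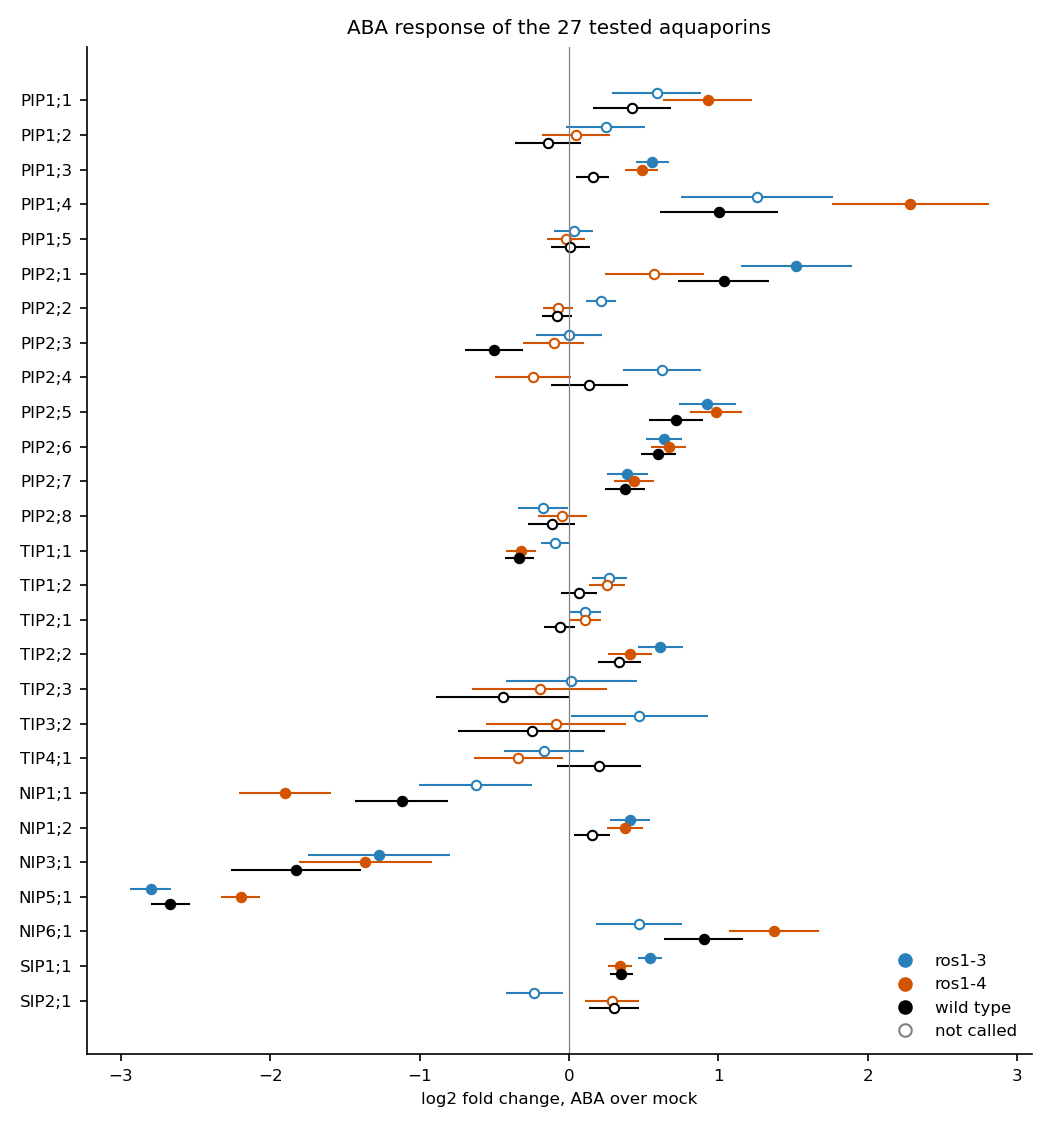
log2 fold change of ABA over mock for the 27 tested aquaporins in ros1-3, ros1-4 and wild type. Lines are 1 standard error, filled points are called at an edgeR adjusted p under 0.05 and open points are not. NIP5;1 lies farthest below 0 in each genotype, at -2.80, -2.20 and -2.67, and most PIPs lie at or above 0.

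NIP5;1 (AT4G10380), the boric acid channel through which root cells take up boron, fell most of all members in each genotype. It had 31.4, 24.4 and 34.7 CPM in ros1-3 ABA, against 192.1, 228.9 and 209.3 CPM in ros1-3 mock. The ros1-4 libraries had 41.8, 36.5 and 44.1 CPM with ABA, against 194.5, 159.0 and 210.1 CPM in mock. In wild type it had 25.8, 30.0 and 35.5 CPM with ABA, against 204.0, 201.8 and 173.8 CPM in mock. The highest ABA library was far below the lowest mock library in every genotype. The log2 fold change was -2.80 (SE 0.14) in ros1-3, -2.20 (SE 0.13) in ros1-4 and -2.67 (SE 0.13) in wild type, with edgeR adjusted p = 3.9e-13, 8.01e-12 and 3.47e-13. These calls held under all 13 alternatives tried in each genotype.

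Among the other NIPs, NIP3;1 (AT1G31885), a channel for arsenite, was lower with ABA but rarely read. It had 1.22, 1.11 and 0.883 CPM in ros1-3 ABA against 1.89, 4.03 and 1.95 CPM in ros1-3 mock, and 0.713, 0.742 and 1.08 CPM in ros1-4 ABA against 2.59, 1.21 and 2.80 CPM in ros1-4 mock. Wild type libraries had 0.459, 0.302 and 1.35 CPM with ABA against 2.50, 2.47 and 2.49 CPM in mock. Libraries did not overlap in any genotype, but values this low rest on few reads. The log2 fold changes were -1.27 (SE 0.48), -1.36 (SE 0.45) and -1.83 (SE 0.44), with edgeR adjusted p = 0.0385, 0.0186 and 0.00184. The ros1-3 call ended on leaving out ros1-3 mock replicate 2 (-0.84) or ABA replicate 1 (-1.37), 2 (-1.30) or 3 (-1.15), by DESeq2 (-1.29), with no filter on low counts (-1.26) and with the covariate for multiply aligned reads (-0.98). The ros1-4 call ended on leaving out ros1-4 mock replicate 1 (-1.25) or 3 (-1.15) or ABA replicate 1 (-1.24), and the wild type call with the covariate (-1.11).

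NIP1;1, which carries arsenite and hydrogen peroxide, fell in ros1-4 and in wild type. It had 1.71, 5.38 and 4.20 CPM in ros1-4 ABA against 18.7, 12.8 and 9.91 CPM in ros1-4 mock. Libraries of the wild type had 4.24, 4.98 and 3.60 CPM with ABA against 12.5, 10.7 and 6.37 CPM in mock. In ros1-3 it had 2.92, 4.87 and 4.86 CPM with ABA against 6.93, 7.30 and 5.30 CPM in mock. No libraries overlapped. The log2 fold change was -0.62 (SE 0.38) in ros1-3, -1.90 (SE 0.31) in ros1-4 and -1.12 (SE 0.31) in wild type, with edgeR adjusted p = 0.208, 4.11e-05 and 0.00616. With the covariate for multiply aligned reads the wild type call ended (-1.06). The difference between each allele's response and that of wild type did not pass the test.

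Rises were also found. NIP6;1 (AT1G80760), a boric acid channel of shoot nodes, had 9.70, 12.1 and 14.5 CPM in ros1-4 ABA against 2.79, 4.36 and 6.73 CPM in ros1-4 mock. In wild type it had 14.6, 12.7 and 12.6 CPM with ABA against 8.01, 5.34 and 7.76 CPM in mock. In ros1-3 its mock libraries spread widely, at 13.9, 8.81 and 4.18 CPM, against 13.4, 10.9 and 14.4 CPM with ABA. It rose in ros1-4 (log2 1.37, SE 0.30, edgeR adjusted p = 0.000954) and in wild type (0.90, SE 0.26, adjusted p = 0.00924), and in ros1-3 it was not called (0.47, SE 0.29, adjusted p = 0.21). Without ros1-3 mock replicate 1 the ros1-3 value was 0.97 and was called. With the covariate for multiply aligned reads the wild type call ended (0.84). NIP1;2, a transporter of aluminium malate, rose in ros1-3 (log2 0.41, SE 0.13) and ros1-4 (log2 0.38, SE 0.12), with edgeR adjusted p = 0.0185 and 0.0172. Its ros1-3 call ended on leaving out ros1-3 mock replicate 1 (0.27) or ABA replicate 2 or 3 (both 0.39), and its ros1-4 call without ros1-4 mock replicate 1 (0.34) or 2 (0.34) or ABA replicate 2 (0.28). Wild type averaged 24.4 ± 1.79 CPM with ABA and 21.8 ± 1.23 CPM in mock, and there the gene was not called.

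Root markers were lower with ABA alongside the boric acid channel. Of 13 root marker genes, all tested, 10 were lower with ABA in ros1-3 (all genes 18.5%), 7 in ros1-4 (18.4%) and 9 in wild type (18.5%), and 0 were higher. Their summed level was 97.4 to 112.5 CPM in ros1-3 ABA against 180.4 to 245.8 CPM in ros1-3 mock, 101.8 to 117.5 CPM in ros1-4 ABA against 185.9 to 242.8 CPM in ros1-4 mock, and 104.5 to 119.7 CPM in wild type ABA against 210.8 to 305.4 CPM in wild type mock. PHT1;1, a phosphate transporter of root epidermis, fell by 2.32, 2.55 and 2.78 on the log2 scale (edgeR adjusted p = 7.94e-08, 7.61e-09 and 5.74e-10 in ros1-3, ros1-4 and wild type), and CASP1, an endodermal protein, by 1.45, 1.60 and 1.72 (edgeR adjusted p = 0.000217, 1.38e-05 and 2.66e-06). In whole seedlings fewer root cells and less RNA per root cell cannot be told apart, and the part of either in the NIP5;1 result was not tested. BOR2, a boron exporter, was the single tested gene of 3 boron export genes. It fell by 1.30 in ros1-3, 1.40 in ros1-4 and 1.30 in wild type on the log2 scale (edgeR adjusted p = 1.81e-07, 2.57e-08 and 4.61e-08). BOR1, a boron exporter of the root, was listed at 0 in all libraries, but it has several transcript models and reads that all of them cover were not counted, so this does not show that it was absent. The third, BOR4, averaged at most 1.75 CPM in a group.

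**Figure D4:**
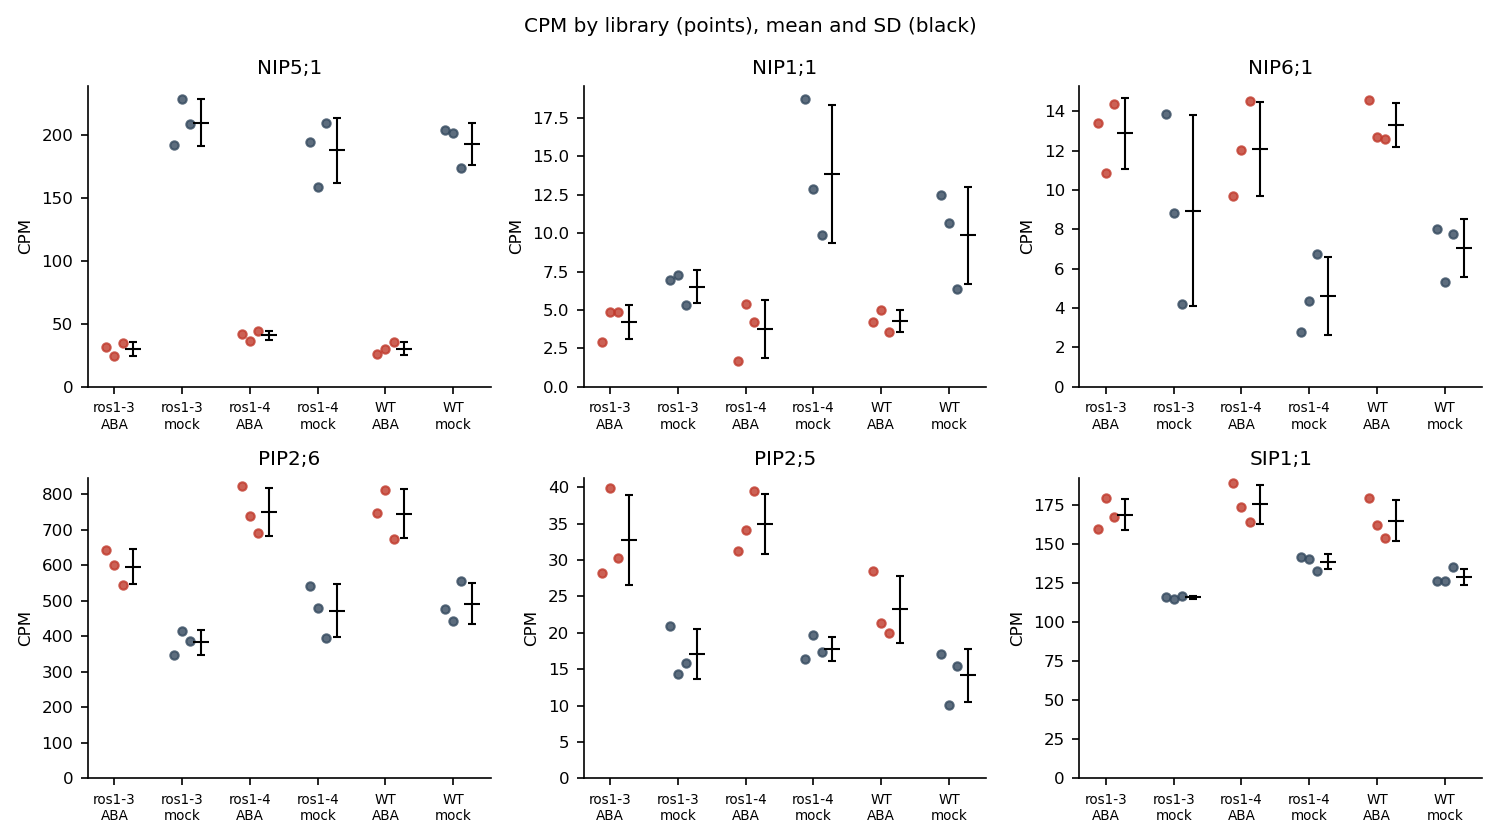
CPM of 6 aquaporins in each of the 18 libraries (points), with mean and SD beside them in black, in ros1-3, ros1-4 and wild type, ABA left of mock. NIP5;1 is at 24.4 to 44.1 CPM with ABA and at 159.0 to 228.9 CPM in mock, and the bottom row's genes are higher with ABA in all 3 genotypes.

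The 250 bases upstream of the annotated start of NIP5;1 and of SIP1;1 are shown, as examples of a member that fell and of a member that rose in all 3 genotypes. They were read from RefSeq's TAIR10.1 genome at chr4:6435397-6435646 and chr3:1074245-1074494, both minus strand, and are written from 5′ to 3′ toward the gene. Capitals mark ACGTG or its complement, the core of the ABA-responsive element to which ABA-regulated bZIP factors bind.
NIP5;1: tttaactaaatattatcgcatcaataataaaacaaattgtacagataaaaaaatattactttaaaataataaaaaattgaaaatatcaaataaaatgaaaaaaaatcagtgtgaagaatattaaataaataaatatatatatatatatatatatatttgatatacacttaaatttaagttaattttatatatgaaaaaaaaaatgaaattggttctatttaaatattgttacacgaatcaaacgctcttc
SIP1;1: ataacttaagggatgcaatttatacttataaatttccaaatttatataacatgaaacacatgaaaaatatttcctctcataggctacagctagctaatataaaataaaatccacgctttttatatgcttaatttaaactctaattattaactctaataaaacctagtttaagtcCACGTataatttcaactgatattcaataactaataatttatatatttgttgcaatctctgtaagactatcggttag
The first window holds no match, and the second holds 1 on the opposite strand, 76 bases before the start. Searched on both strands in the same 250-base window, ACGTG was present in 4 of 35 aquaporin promoters (11.4%) and in 22.9% of 27443 protein-coding genes. The longer form ACGTGNC, which contains the core, was in 1, that of GAMMA-TIP (2.86%), beside 8.57%, and the overlapping G-box CACGTG in 0 beside 6.49%. Of the 4 aquaporins higher with ABA in all 3 genotypes, the SIP held the core, and the 3 PIPs did not. A match is a description of these letters and does not show binding.

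Among the PIPs, rises were called in both classes, PIP1 and PIP2. Of the 5 PIP1 genes 1 rose in ros1-3, 3 in ros1-4 and 1 in wild type, and of the 8 PIP2 genes 4, 3 and 4 rose. Beside these, 19.7%, 19.8% and 20% of all genes were called higher. The PIP1 genes called, PIP1;1, PIP1;3 and PIP1;4, all have several transcript models and were counted only on bases that 1 model covers. RD28 in wild type was the single PIP called lower.

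PIP2;6 (AT2G39010), a water channel known from rosette leaves, rose in all 3 genotypes. It had 642.9, 599.1 and 545.5 CPM in ros1-3 ABA against 347.1, 416.0 and 386.1 CPM in ros1-3 mock. In ros1-4 it had 823.0, 737.1 and 690.0 CPM with ABA against 542.4, 480.1 and 394.6 CPM in mock. Wild type libraries had 748.1, 812.6 and 673.6 CPM with ABA against 476.3, 442.6 and 554.8 CPM in mock. Every ABA library lay above every mock library of its genotype. It rose by 0.64, 0.67 and 0.60 on the log2 scale (SE 0.12 each), with edgeR adjusted p = 0.000171, 9.56e-05 and 0.000279, and no alternative ended these calls.

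PIP2;5 (AT3G54820), long known as a PIP whose mRNA rises in drought, had 28.3, 39.9 and 30.2 CPM in ros1-3 ABA against 21.0, 14.4 and 15.9 CPM in ros1-3 mock. The ros1-4 libraries had 31.2, 34.1 and 39.4 CPM with ABA against 16.3, 19.6 and 17.4 CPM in mock. Libraries of the wild type had 28.5, 21.3 and 19.9 CPM with ABA against 17, 10.1 and 15.4 CPM in mock. No libraries overlapped within a genotype. It rose by 0.93 (SE 0.19), 0.98 (SE 0.18) and 0.72 (SE 0.18) on the log2 scale, with edgeR adjusted p = 0.000447, 0.000113 and 0.00305. With the covariate for multiply aligned reads the wild type call ended (0.48).

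PIP2;7, a salt-stress-responsive water channel with 2 transcript models, had 189.8, 208.6 and 178.1 CPM in ros1-3 ABA against 176.6, 138.2 and 123.8 CPM in ros1-3 mock. In ros1-4 it had 211.8, 177.5 and 178.4 CPM with ABA against 149.9, 149.8 and 120.0 CPM in mock. In wild type it had 184.8, 175.4 and 211.6 CPM with ABA against 127.9, 131.5 and 178.3 CPM in mock, where the lowest ABA library lay below the highest mock library. It rose by 0.39, 0.44 and 0.38 on the log2 scale (SE 0.14, 0.13 and 0.13, edgeR adjusted p = 0.0277, 0.0131 and 0.0298). The wild type call ended on leaving out mock replicate 1 (0.29) or 2 (0.30) or ABA replicate 3 (0.29), and with the covariate for multiply aligned reads (0.35). The ros1-3 call ended on leaving out mock replicate 2 (0.35) or 3 (0.29) or ABA replicate 1 (0.40) or 2 (0.33), and the ros1-4 call without mock replicate 3 (0.34) or ABA replicate 1 (0.35).

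PIP2;1 had 4.14, 5.98 and 5.30 CPM in ros1-3 ABA against 2.1, 1.51 and 1.67 CPM in ros1-3 mock. Wild type libraries had 3.90, 5.13 and 5.25 CPM with ABA against 1.75, 2.06 and 2.69 CPM in mock. The ros1-4 libraries had 3.99, 5.93 and 2.04 CPM with ABA against 2.39, 2.67 and 2.62 CPM in mock, and these libraries overlapped. It rose in ros1-3 (log2 1.52, SE 0.37) and wild type (log2 1.04, SE 0.31), with edgeR adjusted p = 0.00231 and 0.00957. In ros1-4 the value was 0.57 (SE 0.33) and was not called, while without ros1-4 ABA replicate 3 it was 0.93 and called. With the covariate for multiply aligned reads the wild type call ended (1.01). The counts of PIP2;1 come from the few bases that only 1 of its models covers.

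PIP1;4, also known as drought-induced, was rarely read. It had 1.57, 2.41 and 3.24 CPM in ros1-4 ABA against 0.199, 0.485 and 0.748 CPM in ros1-4 mock, and 3.33, 1.51 and 2.85 CPM in wild type ABA against 0.501, 1.23 and 1.69 CPM in wild type mock. In ros1-3 it had 2.19, 2.66 and 2.21 CPM with ABA against 1.26, 0.504 and 1.12 CPM in mock. It rose in ros1-4 (log2 2.29, SE 0.53) and wild type (log2 1.01, SE 0.39), with edgeR adjusted p = 0.00145 and 0.0468, and in ros1-3 it was not called (1.26, SE 0.51). The wild type call ended on leaving out mock replicate 1 (0.77) or 2 (0.98) or ABA replicate 1 (0.75) or 3 (0.95). It was also lost by DESeq2 (1.06), with no filter on low counts (1.01), with the most counted model alone (0.83) and in a fit of only the groups compared (0.996).

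PIP1;3, the most read PIP1 per base that only 1 model covers, rose in ros1-3 (log2 0.56, SE 0.11) and ros1-4 (log2 0.49, SE 0.11), with edgeR adjusted p = 0.00038 and 0.00115. It averaged 193.0 ± 16.5 CPM in ros1-3 ABA and 131.0 ± 13.1 in ros1-3 mock, 195.0 ± 16.1 in ros1-4 ABA and 138.9 ± 3.44 in ros1-4 mock, and 180.1 ± 29.5 in wild type ABA and 161.1 ± 15.3 CPM in wild type mock. In wild type it was not called, but without wild type ABA replicate 3 it was (0.28). PIP1;1 rose in ros1-4 (0.93, SE 0.30, edgeR adjusted p = 0.017), where it averaged 4.80 ± 0.629 CPM with ABA and 2.50 ± 0.392 CPM in mock. The ros1-4 call ended on leaving out ros1-4 mock replicate 3 (0.80) or ABA replicate 1 (0.87). In wild type the gene was not called, but without wild type ABA replicate 2 it was (0.68).

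RD28, or PIP2;3, was called lower with ABA in wild type, at a log2 fold change of -0.50 (SE 0.20) and an edgeR adjusted p = 0.0483. It had 22.7, 28.8 and 27.2 CPM in ros1-3 ABA against 27.9, 24.9 and 25.7 CPM in ros1-3 mock, and 21.3, 34.1 and 24.0 CPM in ros1-4 ABA against 17.9, 32.0 and 34.4 CPM in ros1-4 mock. Libraries of the wild type had 30.5, 17.7 and 23.7 CPM with ABA against 34.5, 30.4 and 37.0 CPM in mock. The libraries overlapped in every genotype. The call ended on leaving out wild type mock replicate 1 (-0.49) or 3 (-0.42) or ABA replicate 2 (-0.33) or 3 (-0.49), with the replicate block (-0.48), with relative log expression scaling (-0.50) and by DESeq2 (-0.50). The covariate for multiply aligned reads ended it too (-0.57). Its near copy PIP2;2 averaged 329.5 ± 33.5 CPM in ros1-3 ABA and 284.0 ± 22.7 in ros1-3 mock, 287.1 ± 18.1 in ros1-4 ABA and 302.1 ± 17.6 in ros1-4 mock, and 302.8 ± 44.9 in wild type ABA and 320.0 ± 18.2 CPM in wild type mock, and was called in none.

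The other PIPs were called in no genotype. PIP1;5, a highly read PIP1, averaged 272.3 ± 33.3 CPM in ros1-3 ABA and 266.7 ± 38.9 in ros1-3 mock, 340.0 ± 30.4 in ros1-4 ABA and 344.4 ± 60.3 in ros1-4 mock, and 328.1 ± 36.3 in wild type ABA and 325.2 ± 35.8 CPM in wild type mock. Its log2 values, 0.03, -0.02 and 0.01, had an SE of 0.13 each. PIP2;8 averaged 23.5 to 29.2 CPM over the 6 groups, PIP2;4, a root channel, 7.55 to 14.2 CPM and PIP1;2 5.11 to 6.51 CPM. PIP2;4 in ros1-3 (log2 0.62, SE 0.26) was called without ros1-3 mock replicate 2 (1.05), with no filter on low counts (0.63) and in a fit of only the groups compared (0.63).

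SIP1;1, a water channel of the endoplasmic reticulum, rose in all 3 genotypes. It had 160.0, 179.8 and 167.1 CPM in ros1-3 ABA against 115.9, 114.6 and 117.1 CPM in ros1-3 mock. In ros1-4 it had 189.0, 173.8 and 164.3 CPM with ABA against 142.0, 140.8 and 133.1 CPM in mock. In wild type it had 179.3, 162.1 and 153.7 CPM with ABA against 126.4, 126.2 and 135.2 CPM in mock. All ABA libraries lay above the mock libraries of their genotype. The log2 fold change was 0.54 (SE 0.08), 0.34 (SE 0.08) and 0.35 (SE 0.08), with edgeR adjusted p = 1.38e-05, 0.00153 and 0.0011. With the covariate for multiply aligned reads the wild type call ended (0.25). SIP2;1, the other SIP tested, averaged 12.7 ± 2.02 CPM in ros1-3 ABA and 14.9 ± 3.13 in ros1-3 mock, 14.4 ± 3.21 in ros1-4 ABA and 11.8 ± 2.36 in ros1-4 mock, and 16.4 ± 0.909 in wild type ABA and 13.2 ± 0.595 CPM in wild type mock, and was not called.

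Among the TIPs the most abundant genes were not called and smaller ones moved in both directions. GAMMA-TIP (TIP1;1) had 545.2, 607.1 and 617.0 CPM in ros1-3 ABA against 589.6, 653.2 and 640.6 CPM in ros1-3 mock. The ros1-4 libraries had 589.1, 623.6 and 708.3 CPM with ABA against 789.9, 850.6 and 757.9 CPM in mock. Wild type libraries had 689.6, 667.8 and 635.4 CPM with ABA against 793.9, 751.5 and 960.1 CPM in mock. The libraries overlapped in ros1-3 and stood apart in ros1-4 and wild type. It fell in ros1-4 (log2 -0.32, SE 0.10) and wild type (log2 -0.33, SE 0.10), with edgeR adjusted p = 0.013 and 0.00998, and its value in ros1-3 was -0.09 (SE 0.10, adjusted p = 0.512). The ros1-4 call ended on leaving out ros1-4 mock replicate 2 (-0.27) or ABA replicate 1 (-0.26), and the wild type call without wild type mock replicate 3 (-0.22).

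TIP2;2, a vacuolar channel of roots, rose in ros1-3 (log2 0.61, SE 0.15) and ros1-4 (log2 0.41, SE 0.15), with edgeR adjusted p = 0.00262 and 0.0294. It averaged 145.0 ± 24.0 CPM in ros1-3 ABA and 95.2 ± 21.2 in ros1-3 mock, 162.4 ± 17.4 in ros1-4 ABA and 122.2 ± 14.5 in ros1-4 mock, and 161.4 ± 18.9 in wild type ABA and 126.9 ± 19.7 CPM in wild type mock. The wild type value of 0.34 (SE 0.14) was not called, although it was without wild type mock replicate 3 (0.48) or ABA replicate 3 (0.41), with no filter on low counts (0.35, adjusted p = 0.0276) and in a fit of only the groups compared (0.33, adjusted p = 0.0396), all by edgeR. The ros1-4 call ended on leaving out ros1-4 mock replicate 2 (0.42) or 3 (0.33) or ABA replicate 1 (0.32).

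The most read aquaporin, TIP1;2, was called in no genotype. It had 5377, 5959 and 4804 CPM in ros1-3 ABA against 4120, 4950 and 4299 CPM in ros1-3 mock. Libraries of ros1-4 held 6973, 6232 and 6644 CPM with ABA against 5898, 5625 and 5129 CPM in mock, and those of wild type 6718, 6423 and 5904 CPM with ABA against 5463, 5610 and 7116 CPM in mock. The ABA and mock libraries stood apart in ros1-4 and overlapped in ros1-3 and wild type. The log2 fold changes were 0.27, 0.25 and 0.07 (SE 0.12 each) with edgeR adjusted p = 0.0784, 0.101 and 0.704. In ros1-3 a call was made by DESeq2 (0.28) and without ros1-3 mock replicate 2 (0.35) or ABA replicate 3 (0.35).

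DELTA-TIP (TIP2;1), second in reads, was likewise not called. It had 2257, 2259 and 1970 CPM in ros1-3 ABA against 1857, 2217 and 1945 CPM in ros1-3 mock. Libraries of ros1-4 held 2774, 3002 and 2775 CPM with ABA against 2727, 2751 and 2450 CPM in mock, and those of wild type 2686, 2688 and 2672 CPM with ABA against 2654, 2505 and 3240 CPM in mock. Wild type mock replicate 3 was the highest library of all. The log2 fold changes were 0.11, 0.11 and -0.06 (SE 0.11 each), with edgeR adjusted p = 0.456, 0.445 and 0.682. The root channels TIP4;1 and TIP2;3 were also called in no genotype, at group means of 9.16 to 21.4 and 1.47 to 2.95 CPM.

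TIP3;2, a channel of seed protein storage vacuoles, was not called and varied widely between libraries, from 1.99 to 14.1 CPM over all 18. The seed storage protein gene CRB, with a single transcript model, had 0 reads in every library. CRA1 and CRC were also listed at 0, but have several models. EM6, a late embryogenesis gene that ABA induces, was the single seed marker tested of 7, and averaged 20.4 ± 1.32 CPM in ros1-3 ABA and 0.0929 ± 0.161 in ros1-3 mock, 15.3 ± 2.63 in ros1-4 ABA and 0.324 ± 0.302 in ros1-4 mock, and 16.9 ± 2.42 in wild type ABA and 0.201 ± 0.199 CPM in wild type mock.

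Genes known to act on PIPs after transcription were read alongside. Of 12 listed genes for PIP trafficking, phosphorylation and turnover 9 were tested. In ros1-3 and in ros1-4 5 were called higher and 1 lower, and in wild type 4 higher and 1 lower. Of all genes 19.7%, 19.8% and 20% were called higher in ros1-3, ros1-4 and wild type, and 18.5%, 18.4% and 18.5% lower. TSPO, an ABA-induced membrane protein that carries PIP2;7 into autophagic degradation, averaged 43.9 ± 5.52 CPM in ros1-3 ABA and 0.0839 ± 0.145 in ros1-3 mock, 42.1 ± 5.34 in ros1-4 ABA and 0.0664 ± 0.115 in ros1-4 mock, and 38.0 ± 14.9 in wild type ABA and 0.102 ± 0.103 CPM in wild type mock. ABA libraries held 25.6 to 54.5 CPM of TSPO and mock libraries 0.0 to 0.252 CPM, so no fold is given. UBC32, a ubiquitin-conjugating enzyme, rose by 1.59, 1.42 and 1.49 on the log2 scale (SE 0.10, 0.09 and 0.09, edgeR adjusted p = 1.21e-11, 5.89e-11 and 1.51e-11). OST1, an ABA-activated kinase that phosphorylates PIP2;1 in guard cells, rose by 1.07, 0.99 and 1.33 (SE 0.25, 0.22 and 0.22, edgeR adjusted p = 0.00157, 0.000848 and 4.24e-05). RMA2, a ubiquitin ligase related to a pepper ligase that holds PIP2;1 back in the endoplasmic reticulum, fell by 1.01, 0.83 and 0.88 (SE 0.14, 0.13 and 0.13, edgeR adjusted p = 7.03e-06, 3.45e-05 and 1.13e-05). RAB18, a dehydrin that is also among the ABA check genes, rose by 6.60, 5.81 and 5.83 (edgeR adjusted p = 2.15e-13, 4.51e-13 and 2.75e-13). QSK1, a receptor-like kinase that acts on PIPs, rose in ros1-3 and ros1-4, by 0.31 in each (SE 0.10 each, edgeR adjusted p = 0.0192 and 0.0137), and in wild type its value was -0.06.

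Proton pumps of the vacuolar membrane share that membrane with the TIPs. Of 6 listed, 5 were tested, with 1 called higher in each genotype and 1 called lower in wild type. VHA-A2 rose by 0.44, 0.49 and 0.46 on the log2 scale in ros1-3, ros1-4 and wild type (SE 0.08 each, edgeR adjusted p = 0.000155, 3.73e-05 and 7.1e-05). AVP1 fell in wild type by 0.26 (SE 0.07, edgeR adjusted p = 0.00792), and its values of -0.18 in ros1-3 and -0.18 in ros1-4 were not called. Of 7 shoot photosynthesis markers 2 were higher and 2 lower in each allele, and 2 higher and 1 lower in wild type. Of 4 guard cell markers 0 were called in ros1-3, 3 were lower in ros1-4 and 2 in wild type. Beside the counts of these lists, 38.2% of all genes tested were called in each allele and 38.5% in wild type.

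Between genotypes few aquaporins were called. In mock, ros1-3 against wild type gave 2 called members, DELTA-TIP and GAMMA-TIP, both lower, beside 1.32% of all genes (0.309% higher and 1.02% lower). DELTA-TIP had 1857, 2217 and 1945 CPM in ros1-3 mock against 2654, 2505 and 3240 CPM in wild type mock. GAMMA-TIP had 589.6, 653.2 and 640.6 CPM in ros1-3 mock against 793.9, 751.5 and 960.1 CPM in wild type mock. For both genes every ros1-3 library lay below every wild type library, and wild type mock replicate 3 stood highest. The log2 difference was -0.48 for DELTA-TIP (SE 0.11, edgeR adjusted p = 0.0191) and -0.41 for GAMMA-TIP (SE 0.10, edgeR adjusted p = 0.0351). DELTA-TIP was no longer called without wild type mock replicate 3 (-0.36) or ros1-3 mock replicate 1 (-0.43) or 3 (-0.46). GAMMA-TIP was no longer called without wild type mock replicate 1 (-0.45) or 3 (-0.30) or ros1-3 mock replicate 1 (-0.37) or 3 (-0.43). The covariate for multiply aligned reads also ended both calls, at -0.50 and -0.53 in that order, and so did a fit of only the groups compared. The share of multiply aligned reads was lower in ros1-3 mock than in wild type mock without overlap, so the covariate and the genotype cannot be fully told apart.

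Other TIPs of ros1-3 mock came near the threshold. TIP1;2 had 4120, 4950 and 4299 CPM in ros1-3 mock against 5463, 5610 and 7116 CPM in wild type mock. Its log2 difference was -0.44 (SE 0.12, edgeR adjusted p = 0.0715). TIP4;1 (AT2G25810) was the single TIP of these on the high side, at 17, 24.2 and 23.1 CPM in ros1-3 mock against 14.0, 10.7 and 7.56 CPM in wild type mock. Its log2 difference was 1.06 (SE 0.28, edgeR adjusted p = 0.0655). The groups did not overlap for either gene, and DESeq2 called both, as did the test with no filter on low counts. Without ros1-3 mock replicate 2 the first was called (-0.53), and the second was called without wild type mock replicate 1 (1.27) and in a fit of only the groups compared (1.06). With ABA it had 19.2, 19.9 and 17.7 CPM in ros1-3 against 14.8, 9.81 and 10.04 CPM in wild type, again without overlap and not called (difference 0.69, SE 0.27, edgeR adjusted p = 0.254), although a fit of only the groups compared called it (edgeR adjusted p = 0.0361). In ros1-4 the gene averaged 9.16 ± 4.42 CPM with ABA against 11.6 ± 2.81 in wild type with ABA, and 11.2 ± 3.84 in mock against 10.8 ± 3.23 CPM in wild type mock.

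**Figure D5:**
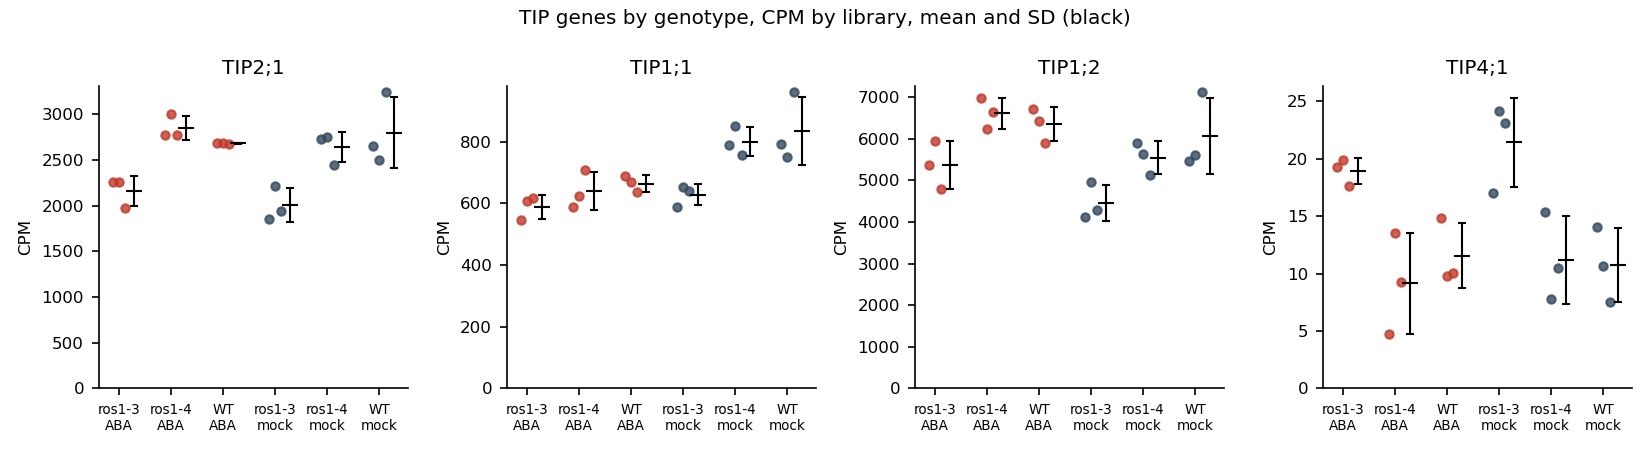
CPM of 4 TIPs in each library (points), with mean and SD in black, for ros1-3, ros1-4 and wild type with ABA and in mock. In mock, ros1-3 libraries lie below wild type in 3 of the panels and above it for TIP4;1, while ros1-4 libraries overlap wild type in all 4.

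Positions differ among these genes. On chromosome 2 (TAIR10.1) ROS1 lies at chr2:15307907-15314807. GAMMA-TIP lies 130.5 kb from it at chr2:15445294-15446621, and the PIP2 pair lies 298.6 and 302.8 kb away. TIP4;1 lies on the same chromosome at chr2:11012499-11014171, while DELTA-TIP (chr3:5505360-5507050) and TIP1;2 (chr3:9722443-9723904) are on chromosome 3.

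The remaining genotype comparisons called no aquaporin. The edgeR count was 0 of 27 for ros1-4 against wild type in mock, beside 0.448% of all genes (0.107% higher and 0.341% lower), with 1 member at an unadjusted p under 0.05 and 0 called by DESeq2. It was 0 for ros1-3 against wild type with ABA, beside 1.72% of all genes (0.738% higher and 0.984% lower), with 7 at an unadjusted p under 0.05 and 0 by DESeq2. It was 0 for ros1-4 against wild type with ABA, beside 0.681% of all genes (0.202% higher and 0.479% lower), with 3 at an unadjusted p under 0.05 and 0 by DESeq2. Of all 15853 genes, 1096, 1948 and 1294 had an unadjusted edgeR p under 0.05 in the same order of comparisons. The calls of DESeq2 among all genes are not given here. The smallest adjusted p of an aquaporin in these comparisons was that of PIP2;4 in ros1-3 with ABA, at 14.2 ± 2.15 CPM against 7.95 ± 2.30 CPM in wild type with ABA (log2 0.82, SE 0.24, edgeR adjusted p = 0.11). It was called with no filter on low counts (0.81, edgeR adjusted p = 0.0274) and in a fit of only the groups compared (0.82, adjusted p = 0.0445). With no filter TIP3;2 was called in the same comparison (1.31, edgeR adjusted p = 0.0274), where the reported value of 1.32 (SE 0.46) was not (adjusted p = 0.184). PIP2;5 in ros1-4 with ABA (log2 0.58, SE 0.16, edgeR adjusted p = 0.135) had the smallest unadjusted p, 0.00152. It was called with no filter on low counts (0.59, edgeR adjusted p = 0.0192) and without wild type ABA replicate 1 (0.77, adjusted p = 0.0417). No test of ros1-3 against ros1-4 was made, so the calls in ros1-3 are not shown to be particular to that allele.

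The test of the difference between ABA responses called no gene of 15853 in either allele by edgeR, 0%, so no aquaporin was shown to respond to ABA differently in a mutant. At an unadjusted p under 0.05 there were 743 genes for ros1-3 and 521 for ros1-4, 2 of them aquaporins in each. They were PIP1;3 (0.40, SE 0.16, edgeR adjusted p = 0.994) and SIP2;1 (-0.53, SE 0.26, adjusted p = 0.994) in ros1-3, and NIP5;1 (0.47, SE 0.18, adjusted p = 1.0) and again PIP1;3 (0.33, SE 0.15, adjusted p = 1.0) in ros1-4, as the allele's log2 response minus that of wild type. DESeq2 called 10 and 1 genes of all. A value past the threshold in 1 genotype and not in another is thus not shown to differ between them.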

How the data were processed

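Messenger RNA of whole seedlings was sequenced on an Illumina HiSeq instrument, 3 libraries in each of 6 groups. The authors deposited raw read counts per transcript model. Tools and build are known from the submitters' processing notes, which name HTSeq 0.6.1, SAMtools, TopHat2 2.0.8, Trim Galore 0.2.8 and TAIR10. No strand setting was stated for the counting, so overlapping antisense genes cannot be told apart. The deposited counts were summed from 40466 models to 32399 loci. The 5 summary rows that name no gene (36.7% to 44.5% of a library) were left out of library sizes.

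Loci were filtered with filterByExpr (15853 kept) and fitted with edgeR 4.0.16 (R 4.3.3, TMM factors, quasi-likelihood test, 1 coefficient per group over all 18 libraries), with p-values adjusted over all genes. CPM uses TMM-scaled library sizes, and the standard error is the size of the log2 fold change over the square root of F. The fit was tried on simulated counts with 200 genes changed in wild type ABA alone. The outcome of that trial is not given here, so no call is backed by it. Comparisons of genotypes and of ABA responses were not covered by that trial. Alternatives were DESeq2 1.42.0, relative log expression scaling, no filter, only the groups compared, the most counted model, a replicate block, each library left out and a covariate for multiply aligned reads. By rule, all 35 loci are accounted for, with every library's value for members called in wild type with ABA or between genotypes, and up to 4 called genes of each list. Per-library values of other members, and OST1, QSK1, OLEO1, OLEO2, ACA9 and SPIK, were chosen after their values were seen. The members and lists were chosen with earlier results of these data known. Promoter windows of 250 bases and coding sequences were read from RefSeq's TAIR10.1 genome, in place of the planned 300-base table.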

Additional observations from a re-analysis of the deposited data

How the results depend on the processing

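Of 38 called aquaporin results, 17 held under all alternatives, 15 were lost when 1 library was left out and 6 were lost otherwise, and none turned its direction, and the cause was not tested in any case. With the share of multiply aligned reads as a covariate, 3 aquaporins were called in wild type for ABA (12 as reported), and between genotypes in mock 0 aquaporins and 96 of all genes in ros1-3 (2 and 210 as reported) and 11 genes in ros1-4 (71 as reported), with ABA 44 genes in ros1-4 (108 as reported), and for the ros1-3 interaction 4 genes (0 as reported). With no filter on low counts the genes called were 333 in ros1-3 mock, 108 in ros1-4 mock, 202 in ros1-4 ABA, 16 for the ros1-3 interaction and 3 for the ros1-4 interaction, and the aquaporins 4 in ros1-3 mock, 2 in ros1-3 ABA and 1 in ros1-4 ABA (2, 0 and 0 as reported). DESeq2 called 4 aquaporins in ros1-3 mock, and 10 and 1 genes for the interactions. A fit of only the groups compared called 1 aquaporin in ros1-3 mock and 2 in ros1-3 ABA. For ros1-3 mock by DESeq2, for ros1-3 ABA with no filter and for the fit of only the groups compared, counts of all genes are not given. The aquaporin counts there thus have none beside them. With no filter, more than the 15853 genes were tested. Leaving out 1 library gave 9 to 15 aquaporins for ABA in ros1-4 (14 as reported), 0 to 3 for ros1-3 mock and 0 to 1 for ros1-4 ABA against wild type, and of all genes 105 to 285 in ros1-3 mock (210 as reported). They were 47 to 68 for ros1-4 mock, 138 to 302 in ros1-3 ABA (273 as reported), 65 to 104 in ros1-4 ABA, 0 to 6 for the ros1-3 interaction and 0 to 2 for the ros1-4 interaction. Without TMM factors the summed CPM was 1755 for PIPs in ros1-4 ABA and 1409 in ros1-3 mock, 9647 for TIPs in ros1-4 ABA and 9210 in wild type ABA, 84.7 for NIPs in ros1-4 ABA, 70.2 in wild type ABA and 270.4 in ros1-3 mock, and 141.9 for SIPs in ros1-3 mock.

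Replicate numbers did not pair the samples: deviations of same-numbered libraries correlated at -0.17 to 0.236, and 3 of 18 libraries correlated best with their own number. With the replicate number as a block, 5904 genes were called for ABA in ros1-3, 5878 in ros1-4 and 5864 in wild type, and 10, 14 and 11 aquaporins. The precision of NIP3;1, PIP1;4 and PIP1;1 is limited by 1 to 58 reads a library, which for both PIPs come only from bases that 1 model covers.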

Other observations

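The seed channel TIP3;1 had 23 of its 45 reads in ros1-4 mock replicate 1, 4.58 CPM. The same library held OLEO1, an oil body protein of seeds, at 2.59 CPM and OLEO2 at 3.58 CPM, the highest OLEO1 and OLEO2 values of the 18 libraries, while the storage protein gene CRB had 0 reads there. TIP3;2, the other seed channel of the family, went the other way, at 1.99 CPM in that library, the lowest of its 18. Summed over the 7 seed markers, ros1-4 mock ranged from 0.374 to 6.77 CPM. No comparison of the report rests on TIP3;1.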
